A study of Mus musculus with 4 samples.

Results

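Chemokines are secreted or membrane-held proteins that attract cells, and 10 of their genes were followed in mouse primary myotubes, the multinucleated muscle cells formed by fused myoblasts. The 10 genes (Cxcl1, Cxcl5, Cxcl10, Ccl2, Ccl7, Ccl5, Cxcl12, Cxcl14, Cxcl16 and Cx3cl1) were chosen by name among the 53647 genes of the count tables. They were chosen with earlier results of these data known. The experiment addressed how the transcriptome of myotubes responds to EDA-A2, a ligand of the tumour necrosis factor family that activates the receptor EDA2R. The control group held 2 libraries of WT myotubes and the EDA-A2 group 2 libraries of WT myotubes given EDA-A2 at 250 ng/ml over 24 h, and all were harvested 72 h after differentiation began. The myoblasts came from limb muscles of pups aged 2 to 3 days and were differentiated in 5% horse serum, so every library is of cultured cells and not of muscle tissue. The study's mice had a C57BL/6 background, which is not stated separately for the pups. What the control cultures received in place of EDA-A2 and whether the pups' cells were pooled are not given in the sources used here.

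Most chemokines act through receptors coupled to G proteins on leukocytes and are named by the spacing of their first cysteines. Inducible chemokines are transcribed when cells meet inflammatory signals, with NFκB and interferon regulatory factors among the best known activators, whereas homeostatic chemokines such as Cxcl12 are made without such a signal. Cx3cl1 (fractalkine) and Cxcl16 differ from the rest in being made as transmembrane proteins, which ADAM proteases can release from the cell surface. In muscle, Cxcl12 is known for guiding muscle precursors, and Ccl2 and Cx3cl1 for drawing monocytes and macrophages to injured tissue.

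The libraries held 29444155 to 29746863 read pairs counted on genes, and 3 counts corresponded to 0.101 to 0.102 CPM (counts scaled to a common library total). Across all genes, the libraries of a pair differed by more than sampling noise, with a chi-square per gene of 6.88 between the control libraries and 3.48 between the EDA-A2 libraries. Markers of myotubes were abundant in every library. The sum of the 10 markers was 753200 and 722300 normalized counts in control and 551800 and 552300 with EDA-A2. All 10 had negative log2 differences, 7 of them at an unadjusted p under 0.05 in edgeR. Of the 10, edgeR called 4 lower (Myh3, Myh8, Acta1 and Actn2), and DESeq2 called 5. Over all genes tested, edgeR called 2.45% higher and 2.13% lower. Of the 10 macrophage markers, 5 had at most 3 counts in any library, the pan-leukocyte gene Ptprc had 0, 2, 1 and 1 counts (the controls 1 and 2 before the EDA-A2 libraries 1 and 2, an order used throughout), and Fcgr1 and C1qa had 0. Mrc1 was the most abundant of them with 211, 168, 288 and 203 counts, and Cd68 had 54, 63, 81 and 69. The summed macrophage markers lay at 309 and 274 normalized counts in control and 439 and 330 with EDA-A2. Their 4 tested members all had positive values, and edgeR called 0 of them, with 2 (Itgam and Cd14) at an unadjusted p under 0.05 and 0 called by DESeq2. Over all genes tested, 2372 of 15173 had an unadjusted p under 0.05 in edgeR, the share beside which such counts stand in every list. The part of the myotube and macrophage markers in the results below was not tested. Of the 4 myoblast markers Vcam1 alone was called, being higher with EDA-A2. The other 3 had negative log2 differences (Pax7 -0.17, Myf5 -0.24 and Myod1 -0.07), and Vcam1 and Pax7 had an unadjusted p under 0.05 in edgeR. The 5 markers of dividing cells summed to 20540 to 24360 normalized counts. Markers of T cells summed to 13.7 to 32.3 normalized counts, those of endothelial cells to 231 to 279 and those of fibroblasts to 47310 to 51550, without a called gene by edgeR or DESeq2. Col3a1 alone held 40000 to 46070 normalized counts of the fibroblast sum. In contrast, 3 of the 8 fibroblast markers had at most 3 counts in any library. At an unadjusted p under 0.05 edgeR passed 0 of the 1 T-cell and 0 of the 3 endothelial markers tested, and 2 of the 4 fibroblast markers, Col1a1 with a log2 difference of -0.46 and Dcn with 0.48, in opposite directions. In bulk libraries such as these, fewer cells of a type and less RNA per cell cannot be told apart.

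EDA-A2 raised 4 of the 10 chemokine genes and lowered none at the threshold. Cx3cl1, Cxcl1, Cxcl10 and Ccl5 were called higher, a call being an adjusted p under 0.05 in the quasi-likelihood test of edgeR, adjusted by the Benjamini-Hochberg method over all 15173 genes tested. Among all genes tested, 2.45% were called higher and 2.13% lower. All 10 genes passed the filter on low counts, 8 had positive and 2 negative log2 fold changes, and their median was 0.67 beside a median of -0.002 over all genes tested, of which 7508 had positive and 7665 negative values. For 7 of the 10, both EDA-A2 libraries lay above both controls, for none below, and for 3 the groups overlapped. Over all genes tested, 22.8% were so separated upwards and 22.2% downwards, so that the separation of the groups alone is a common pattern here. Cxcl16 passed the filter only through the EDA-A2 libraries, yet it counts among the 8 positive and the 7 separated genes and in the median. As the 10 genes were chosen with earlier results of these data known, their counts and median beside those of all genes are a description.

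**Figure D1:**
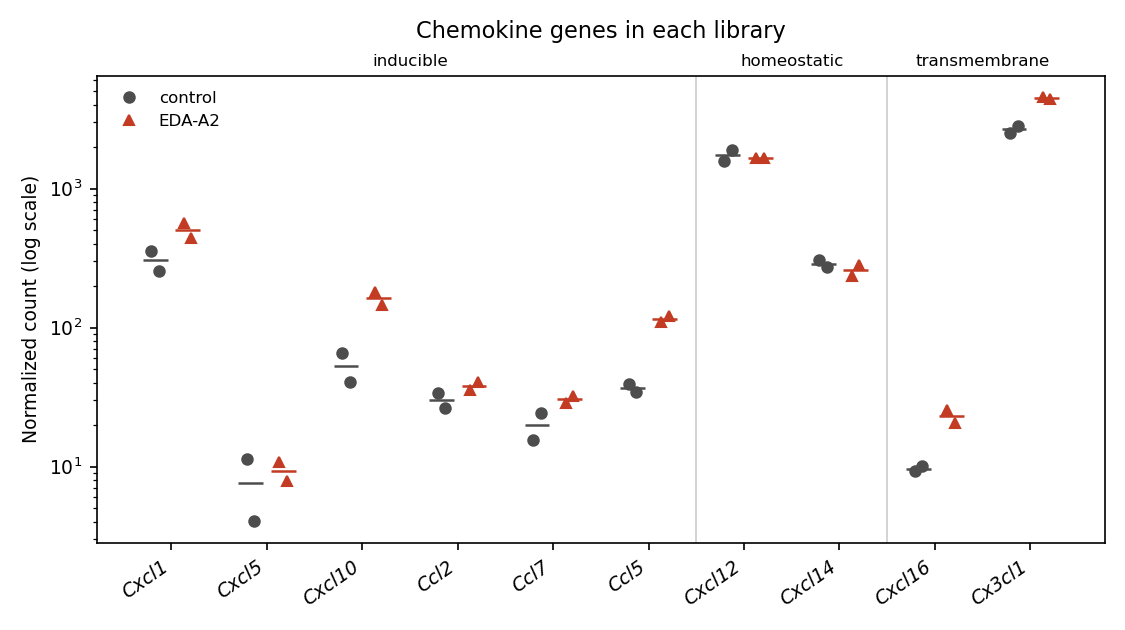
Normalized counts of the 10 chemokine genes in each library (log scale), ordered by class; circles are control libraries, triangles EDA-A2 libraries and bars group means. Cx3cl1 moved from 2501 and 2824 to 4553 and 4386, whereas the libraries of Cxcl5, Cxcl12 and Cxcl14 overlapped between the groups.

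The levels of the genes spanned a wide range in control myotubes. In FPKM (CPM divided by the kilobases of exon, mean ± SD, n = 2), Cx3cl1 stood at 22.7 ± 1.94, above 90.4% of the genes tested. Cxcl12 followed with 7.06 ± 0.92 FPKM, its lower library nearly level with the higher one of Cxcl1, which stood at 5.47 ± 1.30, then Cxcl14 with 2.84 ± 0.235 and Ccl5 with 1.21 ± 0.113. The next genes could not be ordered beyond their spread: Ccl2 (0.894 ± 0.163 FPKM) overlapped Ccl7 (0.830 ± 0.259), and Ccl7 overlapped Cxcl10 (0.798 ± 0.272). Cxcl5 (0.137 ± 0.0920 FPKM) and Cxcl16 (0.0639 ± 0.00378) were the lowest.

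With EDA-A2 the order of levels was different below the top gene. Cx3cl1 stood at 38.1 ± 1 FPKM, and Cxcl1 at 9.05 ± 1.5 now lay above Cxcl12 at 6.70 ± 0.0128. Ccl5 reached 3.80 ± 0.304 FPKM and moved from above 30.3% to above 54.2% of the genes tested. Cxcl10, at 2.43 ± 0.370 FPKM, overlapped Cxcl14 at 2.55 ± 0.306 and lay above 43.3% of the genes tested, compared with 24.3% in control. The remaining levels were 1.27 ± 0.119 FPKM for Ccl7, 1.12 ± 0.105 for Ccl2, 0.166 ± 0.0368 for Cxcl5 and 0.152 ± 0.0226 for Cxcl16, and Ccl7 overlapped Ccl2 as Cxcl5 did Cxcl16. In normalized counts, which are not per length, the 10 genes summed to 4920 and 5392 in control and 7397 and 7131 with EDA-A2, and Cx3cl1 alone held 50.8%, 52.4%, 61.5% and 61.5% of that sum.

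**Figure D2:**
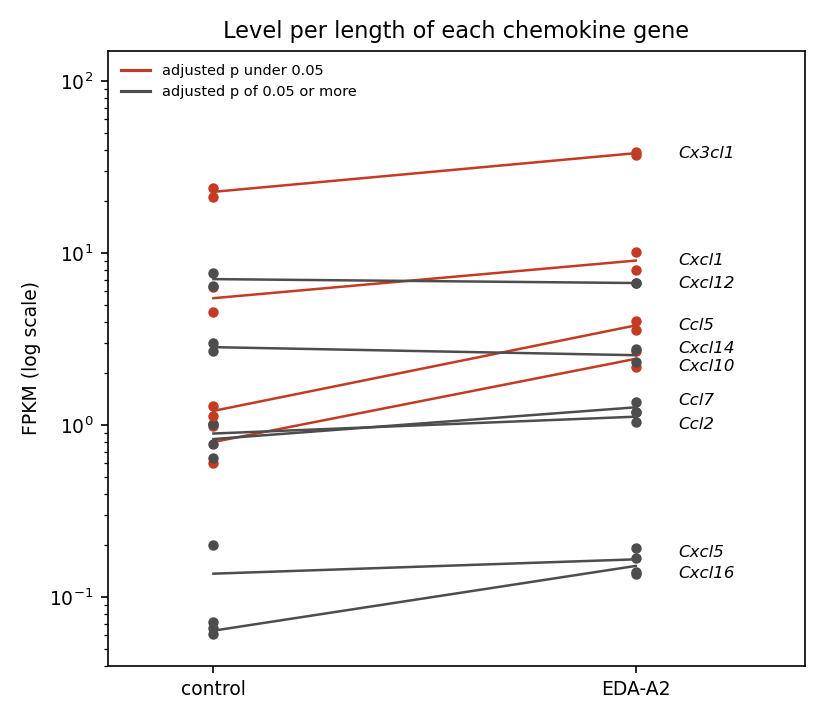
Level of each chemokine gene per exon length (FPKM, log scale) in control and EDA-A2 myotubes; points are libraries, lines join group means and red marks genes called higher. The line of Cxcl1 crosses that of Cxcl12, and Cx3cl1 is the most abundant in both groups.

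The inducible group holds Cxcl1 and Cxcl5, which attract neutrophils through Cxcr2, Cxcl10, an interferon-inducible ligand of Cxcr3, Ccl2 and Ccl7, which attract monocytes through Ccr2, and Ccl5, a ligand of Ccr1 and Ccr3 among other receptors. Of these 6 genes 3 were called higher, and the sum of the group was 521 and 382 normalized counts in control and 925 and 791 with EDA-A2, a description without a test.

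Ccl5 (ENSMUSG00000035042, chr11:83416602-83425942 of GRCm39, minus strand) had 38 and 34 counts in control and 111 and 124 with EDA-A2. Both control libraries were low and both EDA-A2 libraries high, with a wide gap between them. In normalized counts it rose from 36.7 ± 3.44 to 115 ± 9.24 (SD, n = 2), a log2 fold change of 1.65 ± 0.23 (SE), or 3.14-fold with a 95% interval of 2.23 to 4.41 (edgeR, adjusted p = 0.000529).

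Cxcl10 (ENSMUSG00000034855, chr5:92494497-92496748, minus strand) had 64 and 40 counts in control and 183 and 147 with EDA-A2. The groups did not overlap, but the control libraries differed from each other by 0.71 on the log2 scale. In normalized counts it rose from 53.1 ± 18.1 to 162 ± 24.7 (SD, n = 2), a log2 fold change of 1.61 ± 0.23 (SE), or 3.05-fold with an interval of 2.16 to 4.30 (edgeR, adjusted p = 0.000724). Its fold was close to that of Ccl5, and the intervals of these folds overlapped over most of their range. Cxcl10 overlaps Art3, a gene on the other strand, which had 93, 130, 137 and 132 counts and a log2 fold change of 0.22 (edgeR, adjusted p = 0.682). Whether the counting used strand is not given in the sources used here, and reads that fall on Cxcl10 and an Art3 exon would otherwise be ambiguous; the annotation also places long noncoding RNAs on the strand opposite Cxcl5, Ccl5 and Cx3cl1.

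Cxcl1 (ENSMUSG00000029380, chr5:91039094-91040974, plus strand) had 345 and 251 counts in control and 574 and 452 with EDA-A2. The lower EDA-A2 library was above the higher control, while the libraries of a pair lay well apart, by 0.49 on the log2 scale in control. In normalized counts it rose from 304 ± 72.4 to 503 ± 83.7 (SD, n = 2), a log2 fold change of 0.73 ± 0.15 (SE), or 1.66-fold with an interval of 1.32 to 2.08 (edgeR, adjusted p = 0.0114). Among the 4 called genes it had the largest adjusted p, ranking at 364 of the 15173 genes tested, whereas Cxcl10 ranked at 121, Ccl5 at 112 and Cx3cl1 at 35.

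Ccl2, Ccl7 and Cxcl5 were not called. Ccl2 (ENSMUSG00000035385, chr11:81926397-81928279, plus strand) had 33 and 26 counts in control and 36 and 41 with EDA-A2, a log2 difference of 0.33 with a 95% interval of -0.33 to 0.98 (edgeR, adjusted p = 0.704). Ccl7 (ENSMUSG00000035373, chr11:81936532-81938351, plus strand), 8.3 kb away, had 15 and 24 against 29 and 33 counts, a difference of 0.61 with an interval of -0.15 to 1.37 (edgeR, adjusted p = 0.464). For both genes the EDA-A2 libraries lay above the controls by little, and the intervals include no change as well as a rise of the size seen for Cxcl1. Cxcl5 (ENSMUSG00000029371, chr5:90907186-90909483, plus strand) had 11 and 4 against 11 and 8 counts, a difference of 0.28 with an interval of -0.97 to 1.53 (edgeR, adjusted p = 0.891). Its control libraries spanned both EDA-A2 libraries, and its interval is the widest of the 10.

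Depth bears on these genes. Of the 1414 genes tested with a mean of 20 to 50 normalized counts, where Ccl2 and Ccl7 lie, 0.99% were called, and no log2 fold change under 1.13 in size was called. Below 20 normalized counts, where Cxcl5 and Cxcl16 lie, 1.13% of 1414 were called, none with a log2 fold change under 1.52 in size. At 1000 or more, the range of Cx3cl1 and Cxcl12, 6.86% of 5688 were called, and the smallest called log2 fold change was 0.24 in size. Some larger changes in this range were not called, such as that of Ckm at -0.365 (edgeR, adjusted p = 0.0662).

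**Figure D3:**
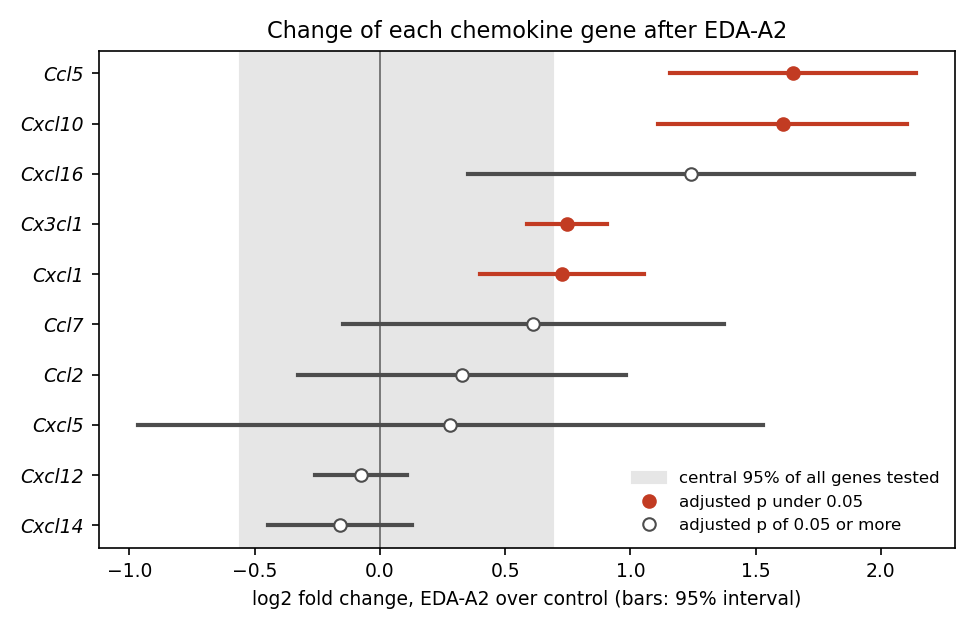
Log2 fold change of each chemokine gene (EDA-A2 minus control) with its 95% interval from edgeR; filled red points mark genes called higher, and the shaded band is the central 95% of all genes tested, -0.56 to 0.69. The intervals of Cxcl5, Ccl2, Ccl7, Cxcl12 and Cxcl14 include 0, and that of Cxcl16 excludes 0 though its adjusted p was 0.125.

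Of the transmembrane chemokines, Cx3cl1 was called higher. Cx3cl1 (ENSMUSG00000031778, chr8:95498637-95509055, plus strand), whose product binds Cx3cr1 and serves as an adhesion molecule when membrane-held, had 2427 and 2800 counts in control and 4645 and 4463 with EDA-A2. The pairs were each close together and far from one another. In normalized counts it rose from 2662 ± 228 to 4470 ± 118 (SD, n = 2), a log2 fold change of 0.75 ± 0.07 (SE), or 1.68-fold with an interval of 1.5 to 1.87 (edgeR, adjusted p = 2.66e-05). Its fold was close to that of Cxcl1 with a narrower interval, and it was the chemokine gene with the smallest p.

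Cxcl16 (ENSMUSG00000018920, chr11:70344517-70352620, minus strand), a ligand of Cxcr6 and a scavenger receptor for oxidized lipoprotein, had 9 and 10 counts in control and 26 and 21 with EDA-A2. It passed the filter on low counts only through the EDA-A2 libraries, so it had to be higher there to be tested at all. Its log2 fold change was 1.24 with an interval of 0.35 to 2.13 (edgeR, unadjusted p = 0.0097, adjusted p = 0.125), and it was not called. The gene overlaps Med11 on the other strand, a gene with 193, 177, 228 and 258 counts and a log2 fold change of 0.34 (edgeR, adjusted p = 0.252).

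The homeostatic chemokines gave no call. Cxcl12 (ENSMUSG00000061353, chr6:117144945-117158328, plus strand), the ligand of Cxcr4 and Ackr3, had 1537 and 1889 counts in control and 1691 and 1682 with EDA-A2. Both EDA-A2 libraries lay between the controls. Its log2 difference was -0.08 with an interval of -0.26 to 0.11 (edgeR, adjusted p = 0.769), so a change of the size seen for Cx3cl1 lies outside the interval. Cxcl14 (ENSMUSG00000021508, chr13:56436352-56444603, minus strand), a chemokine of skin and other epithelia, had 296 and 269 against 241 and 285 counts. The groups overlapped, and the difference was -0.16 with an interval of -0.45 to 0.13 (edgeR, adjusted p = 0.666).

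**Figure D4:**
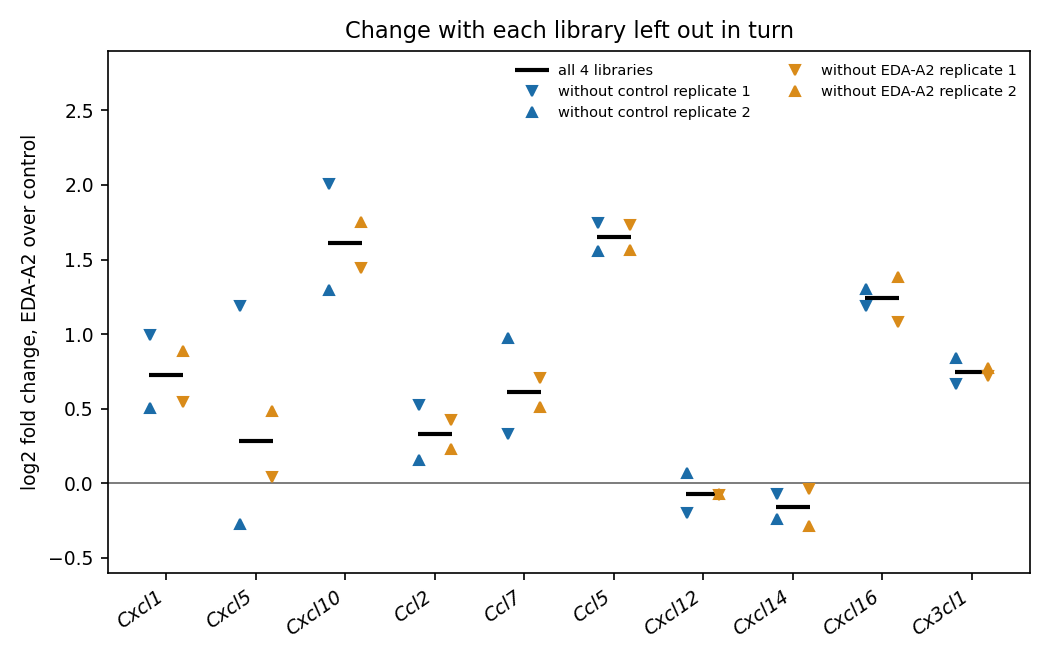
Log2 fold change of each chemokine gene (EDA-A2 minus control) from all 4 libraries and from the 3 that remain when any of them is dropped. The values of Ccl5 stay between 1.56 and 1.75 and those of Cx3cl1 between 0.66 and 0.84, while those of Cxcl5 run from -0.28 to 1.19.

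The size of the rise depended on single libraries more for Cxcl10 and Cxcl1 than for Ccl5 and Cx3cl1. Leaving out each library in turn, with the lone library of its group assumed to vary like the other group, gave log2 fold changes of 1.56 to 1.75 for Ccl5, 0.66 to 0.84 for Cx3cl1, 1.30 to 2.00 for Cxcl10 and 0.50 to 0.99 for Cxcl1. Without control replicate 1 edgeR called 0 of the 10 chemokine genes (6 at an unadjusted p under 0.05) and 0 of all 15704 genes tested (2179 at that level). Without control replicate 2 it called 0 of the 10 (5 at that level) and 0 of all 15716 (2449 at that level). Without EDA-A2 replicate 1 it called 3 of the 10, Cxcl1 being lost at an adjusted p of 0.0648 in edgeR, and without EDA-A2 replicate 2 it called 4.

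The promoters are shown because NFκB binding sites are a known feature of inducible chemokine genes. For each called gene, and for Cxcl5, the 200 bases before the start of the canonical GENCODE transcript are given 5′ to 3′ on the gene's own strand (GRCm39: Cxcl1 chr5:91038894-91039093 plus, Cxcl5 chr5:90907037-90907236 plus, Cxcl10 chr5:92496749-92496948 minus, Ccl5 chr11:83421346-83421545 minus, Cx3cl1 chr8:95498437-95498636 plus). Capitals mark matches on either strand to the kappaB consensus, by which NFκB binding sites are known, to the TATA box core TATAAA and to the interferon-response core GAAANNGAAA.
Cxcl1: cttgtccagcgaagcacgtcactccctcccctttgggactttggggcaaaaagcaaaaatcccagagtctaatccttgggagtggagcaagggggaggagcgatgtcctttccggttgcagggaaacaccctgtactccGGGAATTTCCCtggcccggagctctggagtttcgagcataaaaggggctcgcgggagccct
Cxcl10: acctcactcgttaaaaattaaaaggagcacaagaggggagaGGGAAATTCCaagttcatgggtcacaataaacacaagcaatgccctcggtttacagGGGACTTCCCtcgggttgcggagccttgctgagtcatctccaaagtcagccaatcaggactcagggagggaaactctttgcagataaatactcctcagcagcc
Ccl5: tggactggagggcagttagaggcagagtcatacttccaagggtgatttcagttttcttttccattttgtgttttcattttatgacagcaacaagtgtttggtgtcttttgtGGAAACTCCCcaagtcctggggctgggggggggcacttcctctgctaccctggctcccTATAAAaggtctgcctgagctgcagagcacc
Cx3cl1: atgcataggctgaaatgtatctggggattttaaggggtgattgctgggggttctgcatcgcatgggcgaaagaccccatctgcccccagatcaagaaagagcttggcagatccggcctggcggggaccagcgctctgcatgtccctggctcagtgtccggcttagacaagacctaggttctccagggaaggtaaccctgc
Cxcl5: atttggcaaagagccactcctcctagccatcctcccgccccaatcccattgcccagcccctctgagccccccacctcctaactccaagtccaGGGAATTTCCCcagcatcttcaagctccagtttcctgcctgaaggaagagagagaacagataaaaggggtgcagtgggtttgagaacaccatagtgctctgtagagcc

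The same run of 11 capitals, GGGAATTTCCC, stands 61 to 51 bases before the start of Cxcl1 and 108 to 98 bases before that of Cxcl5, where it reads as an overlapping match on each strand. Cxcl10 has matches 159 to 150 and 103 to 94 bases before its start, and Ccl5 has 1 on the other strand, 89 to 80 bases before, with a TATA box core at 31 to 26. No capitals occur in the window of Cx3cl1, which says only that these letters are not in it. Its canonical start lies at -171 relative to the RefSeq start, and the 200 bases before that RefSeq start (GRCm38.p6) hold 1 TATA box core and no kappaB match. A kappaB match was thus in 4 of the 10 chemokine promoters, beside 3.51% of the 21626 promoter windows of protein-coding genes. It was in 3 of the 4 called genes, Cx3cl1 being without one, and in 1 of the 6 not called, Cxcl5. The low counts of Cxcl5 give its change a wide interval, as do those of Ccl2, Ccl7 and Cxcl16, which hold no kappaB match. Whether matches and calls go together was not tested. The interferon-response core was in 1 promoter, that of Cxcl14 (2.44% of all windows), and the TATA box core in 2 of these GENCODE windows, those of Ccl5 and Ccl7 (9.6% of all windows). RefSeq promoters were given for 5 of the 10 genes (Cxcl1, Cxcl10, Cxcl12, Cxcl14 and Cx3cl1), and in their last 200 bases before the start those of Cxcl1, Cxcl10 and Cxcl14 held the same kinds of match. These matches describe the letters and are not measured sites. For every gene, a missing match says only that the letters are not in these 200 bases, and sequence further upstream was not searched.

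Most of the 10 genes lie in clusters of chemokine genes, and the neighbours were nearly silent in these libraries. Beside Cxcl10, Cxcl11 (10.7 kb away) had 0, 0, 2 and 0 counts and Cxcl9 (18.6 kb away) 0, 0, 7 and 6, both being interferon-inducible ligands of Cxcr3. Cxcl9, named after its values were seen, was not tested, and its EDA-A2 mean was at least 2.09-fold higher than a floor of 3 counts per control library. Beside Cxcl1, Cxcl2 (10.8 kb away), another neutrophil chemokine, had 0, 0, 1 and 0 counts. Near Ccl2 and Ccl7, Ccl11, Ccl12 and Ccl1 had 0 counts in every library and Ccl8 had 3, 1, 0 and 2. Near Ccl5, Ccl9 (37.8 kb away) had 0, 4, 11 and 10 counts, and Ccl3 and Ccl4 had 0. Near Cx3cl1, Ccl17 (25.3 kb away) had 1, 3, 10 and 4 counts and Ccl22 had 0. A count of 0 in a library allows up to 0.102 CPM, for counting error only.

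Of all 28 other chemokine ligands listed, 13 had 0 counts in every library, 20 had at most 3 in any, and 3 passed the filter. EdgeR called 0 of these 3 (0 at an unadjusted p under 0.05), and DESeq2 called 0 (1 at that level). Ccl25, a chemokine of thymus and gut, had 268, 227, 308 and 242 counts and a log2 difference of 0.10 with an interval of -0.22 to 0.42. Ccl27a, known from skin, had 113, 125, 99 and 115 counts and a difference of -0.21 with an interval of -0.60 to 0.19. Ccl28, a mucosal chemokine, had 15, 17, 35 and 19 counts and a difference of 0.70 with an interval of -0.16 to 1.55, its higher values resting on EDA-A2 replicate 1.

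Several receptors for the called chemokines were at or near 0 in these cultures. Cxcr2 and Cxcr3 had 0 counts in every library, Ccr1 had 2, 0, 1 and 1, and Ccr3 had 0, 0, 0 and 1. Cx3cr1, the receptor of Cx3cl1, had 8, 8, 0 and 6 counts and was not tested. Of the 23 receptors listed, 9 had 0 counts throughout and 3 were tested, of which edgeR called 0 (1 at an unadjusted p under 0.05) and DESeq2 0 (0 at that level). Ackr3, an atypical receptor that takes up Cxcl12, had 1143, 948, 1245 and 968 counts and a log2 difference of 0.03 with an interval of -0.23 to 0.28. Cxcr4, the signalling receptor of Cxcl12, had 121, 109, 135 and 143 counts and a difference of 0.22 with an interval of -0.15 to 0.59. Ccrl2, an atypical receptor that binds chemerin, had 5, 11, 20 and 24 counts and a log2 fold change of 1.39 with an interval of 0.40 to 2.39 (edgeR, unadjusted p = 0.00944, adjusted p = 0.123). Cxcl12 and its receptors Cxcr4 and Ackr3 were thus all measured, and none of these 3 genes was called.

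The list of chemokine receptor signalling held 23 genes, among them G protein subunits, arrestins, receptor kinases and PI3K subunits. Of its 17 tested genes, edgeR called 0 (4 at an unadjusted p under 0.05) and DESeq2 called 0 (3 at that level). Their median log2 difference was -0.01. In edgeR 2372 of all 15173 genes tested passed that unadjusted level. The list of proteases that act on chemokines, which also held the non-proteases Rhbdf1 and Rhbdf2, gave 1 call in 7 tested, of 11 listed. Over all genes tested, 2.45% were called higher and 2.13% lower. Adam10 and Adam17, the main sheddases of Cx3cl1 and Cxcl16, had 4083, 4453, 4647 and 4602 counts and 3013, 3136, 3493 and 3391 counts, with log2 differences of 0.06 (interval -0.08 to 0.20) and 0.11 (interval -0.03 to 0.25). Mmp9, a gelatinase that trims several CXC chemokines, had 199 and 266 counts in control and 956 and 936 with EDA-A2. Its log2 fold change was 1.97 (edgeR, adjusted p = 1.16e-07), while the median of the 7 tested genes of this list was 0.06.

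All 12 listed transcription factors of inflammatory and interferon signalling were tested, and 3 were called higher and 0 lower, with a median of 0.07. Over all genes tested, 2.45% were called higher and 2.13% lower. At an unadjusted p under 0.05 edgeR passed 5 of the 12, beside 2372 of all 15173 genes tested. Nfkb2 and Relb, subunits of the noncanonical NFκB pathway, had log2 fold changes of 1.89 (edgeR, adjusted p = 9.46e-10) and 0.99 (edgeR, adjusted p = 3.1e-05). Irf1, an activator of several chemokine genes, had 599 and 651 counts in control and 1391 and 1316 with EDA-A2, a log2 fold change of 1.06 (edgeR, adjusted p = 2.84e-06). Rela, the canonical subunit, had a log2 difference of 0.30 (edgeR, adjusted p = 0.057) and was not called. The lists of proteases and factors were written with these results known, so their counts are a description.

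The 3 protein-coding genes whose pattern over the 4 libraries was closest to that of Cx3cl1, by Euclidean distance between centred log2 CPM, were Echdc3, Awat2 and Cmklr2. Echdc3, an enoyl-CoA hydratase family gene, lay at a distance of 0.0551 with 102, 112, 190 and 186 counts. Awat2, a wax ester synthase, lay at 0.0615 with 42, 46, 78 and 76 counts. Cmklr2, a chemerin receptor, lay at 0.0621 with 8, 10, 17 and 16 counts. It passed the filter on low counts only through the EDA-A2 libraries, so it had to be higher there to enter the search. Of the 3 genes, Echdc3 was called (edgeR, adjusted p = 0.0134). Awat2 (edgeR, adjusted p = 0.0992) and Cmklr2 (edgeR, adjusted p = 0.437) were not. Each was lower in both controls than in both EDA-A2 libraries, as closeness to Cx3cl1 requires.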

How the data were processed

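RNA of 4 libraries of primary myotubes was sequenced (TruSeq stranded mRNA). According to the submitters' processing notes, FastQC 0.11.9, MultiQC 1.12, Trim Galore 0.6.5, STAR 2.7.3a, HTSeq 0.11.1 and the build GRCm39 were used. The authors deposited 1 table for each library with the raw read pair count of every Ensembl gene, not normalized. The annotation release is not given in the sources used here. HTSeq summary lines (12.185% to 12.991% of pairs) were left out.

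Counts were fitted in R 4.3.3 with edgeR 4.0.16 (TMM, filterByExpr with minimum count 10 and minimum total 15, glmQLFit, glmQLFTest), with treatment as the only term and Benjamini-Hochberg adjustment over 15173 genes at a threshold of 0.05. SE is the log2 fold change over the square root of F. A normalized count is scaled to the mean of the effective library sizes, and FPKM divides by the exon union of GENCODE M39, which matched 52610 of 53647 genes. The study's methods call its samples biological replicates in general, but neither they nor the labels say that these libraries came from separate cultures or animals, so p-values measure only the spread between these libraries, which may be technical.

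Alternatives were DESeq2 1.42.0 (size factors or Wald test), upper quartile factors, total counts, other filters, a replicate block and leaving out each library. The genes named are all 10 chemokine genes, in other lists each called gene up to 5 by p and each other ligand or receptor reaching 10 counts, and the 3 nearest patterns; further genes (Adam10, Adam17, Rela, cluster neighbours and receptors under 10 counts) were named for their role or place. The members and lists were chosen with earlier results of these data known. Motifs were searched with pysam 0.24.0 on both strands. Scripts were tested on simulated data. Some listed genes are not reported here.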

Additional observations from a re-analysis of the deposited data

How the results depend on the processing

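The count of 4 chemokine genes called held under DESeq2 size factors, upper quartile factors, total counts, a filter of at least 10 counts in every library (where Cxcl5 and Cxcl16 were not tested) and DESeq2's Wald test. Without a filter it was 2, Ccl5 and Cx3cl1, when 86 of 25545 genes were called in place of 694. Leaving out single libraries gave 0 to 4, and 0 to 402 over all genes. The log2 difference of Cxcl5 ran from -0.28 to 1.19 and that of Cxcl12 from -0.20 to 0.065 over these fits, both turning sign without control replicate 2; the other 8 kept their direction under every alternative. No other ligand or receptor was called by edgeR or DESeq2 under any setting. With a replicate block 4 chemokine genes and 1066 of all genes were called, but the labels share only a number: the deviations of same-numbered libraries correlated at 0.0566. Total counts moved the median of all genes from -0.002 to 0.05 on the log2 scale. The causes were not tested. Depth limits Cxcl5, Cxcl16, Ccl2 and Ccl7, at 4 to 41 counts per library.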

Other observations

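Among the listed transcription factors, the interferon-pathway genes Irf7 and Irf9 were higher in control replicate 1 than in control replicate 2, and were picked after their values were seen. Irf7 had 168 and 99 counts in control and 135 and 116 with EDA-A2, and Irf9 had 417 and 242 against 269 and 282. Cxcl10, an interferon-inducible gene, had 64 and 40 counts in the same control libraries, and its log2 fold change was 2.00 without control replicate 1 and 1.30 without control replicate 2. For Irf7 and Irf9 the EDA-A2 libraries lay between the controls, unlike Cxcl10, Ccl5 and Cx3cl1, where they lay above both. The part of this difference between the controls in the rise of Cxcl10 was not tested.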
